A study of Sus scrofa with 32 samples.

Results

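The Wnt pathway of the pig endometrium was followed through 49 genes for ligands, receptors and modulators, out of 30185 genes counted. The genes were taken by pig gene symbol from a list set by role: 9 ligands, 2 genes for ligand processing, 9 frizzled receptors, 5 co-receptors, 9 genes for secreted inhibitors and the Dickkopf receptor KREMEN1, 6 genes of the R-spondin branch and 9 intracellular genes. All 49 symbols matched a single NCBI gene ID each.

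Wnt ligands are lipid-modified secreted proteins that act over short distances on frizzled receptors and their LRP5 or LRP6 co-receptors. In the canonical branch receptor binding stops the destruction of beta-catenin, which then works with TCF/LEF factors at target genes, whereas ROR and RYK receptors serve branches without beta-catenin. In the uterus the pathway is known for its part in gland formation, in epithelial-stromal communication and in the preparation for implantation.

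Cells had been cut by laser capture microdissection (LCM) from frozen endometrium of 8 gilts on Day 14, 4 pregnant and 4 cyclic. All gilts were prepuberal and had their cycle synchronized with eCG and hCG. Pregnant gilts had been inseminated with semen, and cyclic gilts with the supernatant of semen. In pregnant gilts the tissue was taken at hyperemic zones, where embryos had attached, so pregnancy and the place of sampling cannot be told apart. From each gilt came blood vessels (BV), stroma (S) and the epithelium of the lumen (LE) and of the glands (GE), so the compartments of a gilt are not independent samples. Gilts are named by the state letter and the animal number in their library names: C40, C42, C78 and C128 were cyclic, and P39, P41, P43 and P139 were pregnant. Where values are listed without names, they are in this order, and P41 is missing in GE. The GE library of pregnant gilt P41 was not analysed here, which left 31 libraries with 3 pregnant samples in GE and 4 in every other group.

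The libraries held 2415216 to 7081556 counts each, with a median of 3624021. Levels are given as CPM, counts scaled to the depth of each library after joint normalization of all 31 libraries, and levels of different genes are compared only as CPM per kilobase of exon. Epithelial markers followed the labelled compartments, and the other lists did so in part. Summed over 12 epithelial markers, LE libraries had 2924 to 3756 CPM and GE libraries 1847 to 2346 CPM, against 3.97 to 387 CPM in BV and 12.0 to 597 CPM in S. Smooth muscle markers summed to 1101 to 18345 CPM in BV and to at most 1219 CPM elsewhere, so that BV of gilt P39 lay below S of gilt C128. The 8 endothelial markers summed to 1556 to 3080 CPM in BV, 557 to 2858 CPM in S, 133 to 1055 CPM in LE and 16.6 to 185 CPM in GE. For this list S of gilts P139 (2858 CPM) and P43 (1902 CPM) was above BV of gilts C128 (1556 CPM) and P139 (1817 CPM), so BV and S overlapped. Fibroblast markers summed to 25082 to 106304 CPM in BV and S, and still to 4097 to 16514 CPM in LE and 2877 to 7533 CPM in GE. Of 9 trophoblast markers, IL1B2, CYP17A1, CYP19A1 and CDX2 had no count in any library, and the whole list summed to 0 to 5.11 CPM in all libraries but LE of gilt P43, which had 13.1 CPM against at most 2.41 CPM in the other LE libraries (pregnant to cyclic ratio in LE 3.30, exact permutation p = 0.714, two-sided). In bulk cuts like these, fewer cells of a type and less RNA per cell cannot be told apart.

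TCF/LEF factors bind a short DNA core, and the bases just before the annotated start of each member were read for it from the RefSeq genome Sscrofa11.1. The core was searched on both strands as CTTTGNN, where each of the last 2 bases is A or T, within 250 bases. Of 45 members whose model has a 5′ untranslated part, 8 held a core (17.8%), namely AXIN2, FZD1, FZD7, LEF1, NKD1, RNF43, ROR1 and WLS. Among 18314 protein-coding genes read the same way, 10.9% held a core. DKK1, FZD2, FZD4 and RSPO3 were left out because their model starts at the coding sequence. A match is a stretch of letters and not a binding site. Windows of AXIN2 and NKD1 are shown because both genes are textbook feedback targets of the pathway, and those of LEF1 and WLS because their levels carry results given later. Cores are in capitals, in 5′ to 3′ direction of the gene.
AXIN2, chr12:12343208-12343457, minus strand: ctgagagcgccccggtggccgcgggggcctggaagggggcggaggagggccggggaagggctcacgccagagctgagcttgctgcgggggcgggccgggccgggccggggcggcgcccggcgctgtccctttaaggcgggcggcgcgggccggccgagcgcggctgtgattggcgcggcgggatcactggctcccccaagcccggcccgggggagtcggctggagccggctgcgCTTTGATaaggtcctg
NKD1, chr6:34319585-34319834, minus strand: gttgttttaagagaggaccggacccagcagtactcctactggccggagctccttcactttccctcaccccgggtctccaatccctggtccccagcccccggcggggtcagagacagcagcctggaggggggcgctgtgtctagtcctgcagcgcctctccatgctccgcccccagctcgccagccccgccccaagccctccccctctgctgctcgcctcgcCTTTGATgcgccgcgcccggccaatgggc
LEF1, chr8:113824261-113824510, plus strand: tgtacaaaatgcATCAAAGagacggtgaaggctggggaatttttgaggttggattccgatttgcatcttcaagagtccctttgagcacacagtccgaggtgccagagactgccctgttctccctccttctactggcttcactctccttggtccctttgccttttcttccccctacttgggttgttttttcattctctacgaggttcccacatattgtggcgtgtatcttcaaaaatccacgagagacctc
WLS, chr6:144242389-144242638, plus strand: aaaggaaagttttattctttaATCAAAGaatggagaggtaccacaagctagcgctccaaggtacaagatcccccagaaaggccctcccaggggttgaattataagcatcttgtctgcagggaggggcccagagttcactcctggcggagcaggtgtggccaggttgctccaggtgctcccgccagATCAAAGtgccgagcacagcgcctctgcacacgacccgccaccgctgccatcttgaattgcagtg
The core of AXIN2 begins 16 bases before the start and that of NKD1 29 bases before it. In LEF1 the core lies on the other strand at -238, and WLS holds 2 cores on the other strand.

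How were the members spread over the 4 compartments? A gene counted as detectable in a compartment when it passed the CPM filter of the deposited tables. By this filter 26 members were detectable in all 4 compartments, 4 in 3 of them, 9 in 2 and 4 in 1. WNT4, WNT5B, WNT7B, WNT11, PORCN and RSPO3 were detectable in none and were not tested. Between compartments 43 members were tested in 1 fit of all libraries that kept the gilt as a block, at a false discovery rate (FDR) of 1%. A gene entered this fit if it was detectable in at least 1 compartment. Some members, such as WNT7A in LE, NOTUM in GE and WNT6 and FZD2 in BV and S, entered only through compartments where they were called high. The pattern counts of members and of all genes therefore lean in part on this filter.

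Most differences ran between the epithelia and the other cells. In 15 of 43 members (34.9%) both BV and S were above both epithelia, a pattern found in 14.4% of all 13887 genes tested. Among the 15, WNT6, FZD2, SFRP4, RSPO1 and NKD1 passed the filter in 2 compartments only. Over genes detectable in all compartments the lean to BV and S was smaller. There 8 members were called above and 11 below for LE against BV (11 and 23 in the main fit). The splits were 8 and 12 for LE against S (11 and 21), 10 and 11 for GE against BV (12 and 23). For GE against S they were 11 and 11 (14 and 22). The reverse pattern, both epithelia above BV and S, held for 7 members (16.3%), WLS, FZD3, FZD5, FZD6, KREMEN1, LGR4 and RNF43, against 12.7% of all genes. GE was below all 3 others in 9 members (20.9%, against 15.4% of all genes) and above all 3 others in 5 (11.6%, against 10.9%), namely NOTUM, RNF43, ZNRF3, LEF1 and TCF7. BV was highest in 5 members (11.6%, against 2.38% of all genes), WNT2B, FZD4, FZD7, SFRP1 and SFRP4, and S in 4 (9.30%, against 2.02%), WNT2, WNT5A, WNT6 and DKK1. Of these, WNT2B, SFRP4 and WNT6 passed the filter in 2 compartments only. The members were also chosen with earlier results of these data known, so the shares are no independent measure of an excess. LE was highest in 3 members (6.98%, against 8.09%), WNT7A, LGR5 and TCF7L2, and lowest in 2 (4.65%, against 2.12%), WNT2B and AXIN2. FZD8 alone was lowest in S (2.33%, against 0.554%), and BV was lowest in 0 members (0.518%). AXIN1, a scaffold of the complex that marks beta-catenin for destruction, and CTNNB1, the gene of beta-catenin, differed in no pair, as 19.1% of all genes.

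These patterns rest on 168 called pair differences of the members, of which 147 stayed called whichever gilt was left out. All 7 members higher in both epithelia and all 9 lowest in GE kept their pattern with each gilt left out. Of the 15 members with both BV and S above both epithelia 8 did, and DKK3, FZD2, NKD1, RYK, SFRP4, TCF7L1 and WNT6 lost a call on leaving out 1 to 5 of the gilts. Endothelial and fibroblast markers summed to more in LE than in GE on average. Their part in the calls of the members lowest in GE was not tested. TCF7L2 was no longer called highest in LE without gilt C40 or C78 (LE against S, adjusted p up to 0.0120), and ZNRF3 no longer called highest in GE without gilt C42, P39, P41 or P43. AXIN2 was no longer called lowest in LE without gilt C40, P39, P43 or P139. FZD8 was no longer called lowest in S without gilt C40, C42, P39, P43 or P139 (BV against S, adjusted p up to 0.0342). WNT6 was no longer called highest in S whichever gilt was left out, nor FZD4 highest in BV without gilt C40, C42, C128, P39, P41 or P43. By state, 1 difference changed sign: RNF43 was above BV in LE of cyclic gilts (2.23 ± 0.36, adjusted p = 2.91e-05), and in pregnant gilts the difference was -0.07 ± 0.35 (adjusted p = 0.889).

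By pair, 20 of 43 members differed between LE and GE (41.4% of all genes), 34 between LE and BV (49.2%), 32 between LE and S (50.6%), 35 between GE and BV (58.3%) and 36 between GE and S (59.3%). BV and S were the closest pair, with 11 of 43 members called against 7.19% of all genes. That last count was 7 without the gilt as a block (5.94% of all genes), when WNT2, WNT2B, WNT6 and SFRP1 were lost. It was 7 without cyclic gilt C42 (4.26% of all genes) and 1 within the pregnant gilts alone (0.101%). The median log2 difference of the members was -0.86 for LE minus BV and -0.68 for GE minus S, while the medians over all genes were 0.05 and -0.03. These medians of the 43 members lean in part on the CPM filter.

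**Figure D1:**
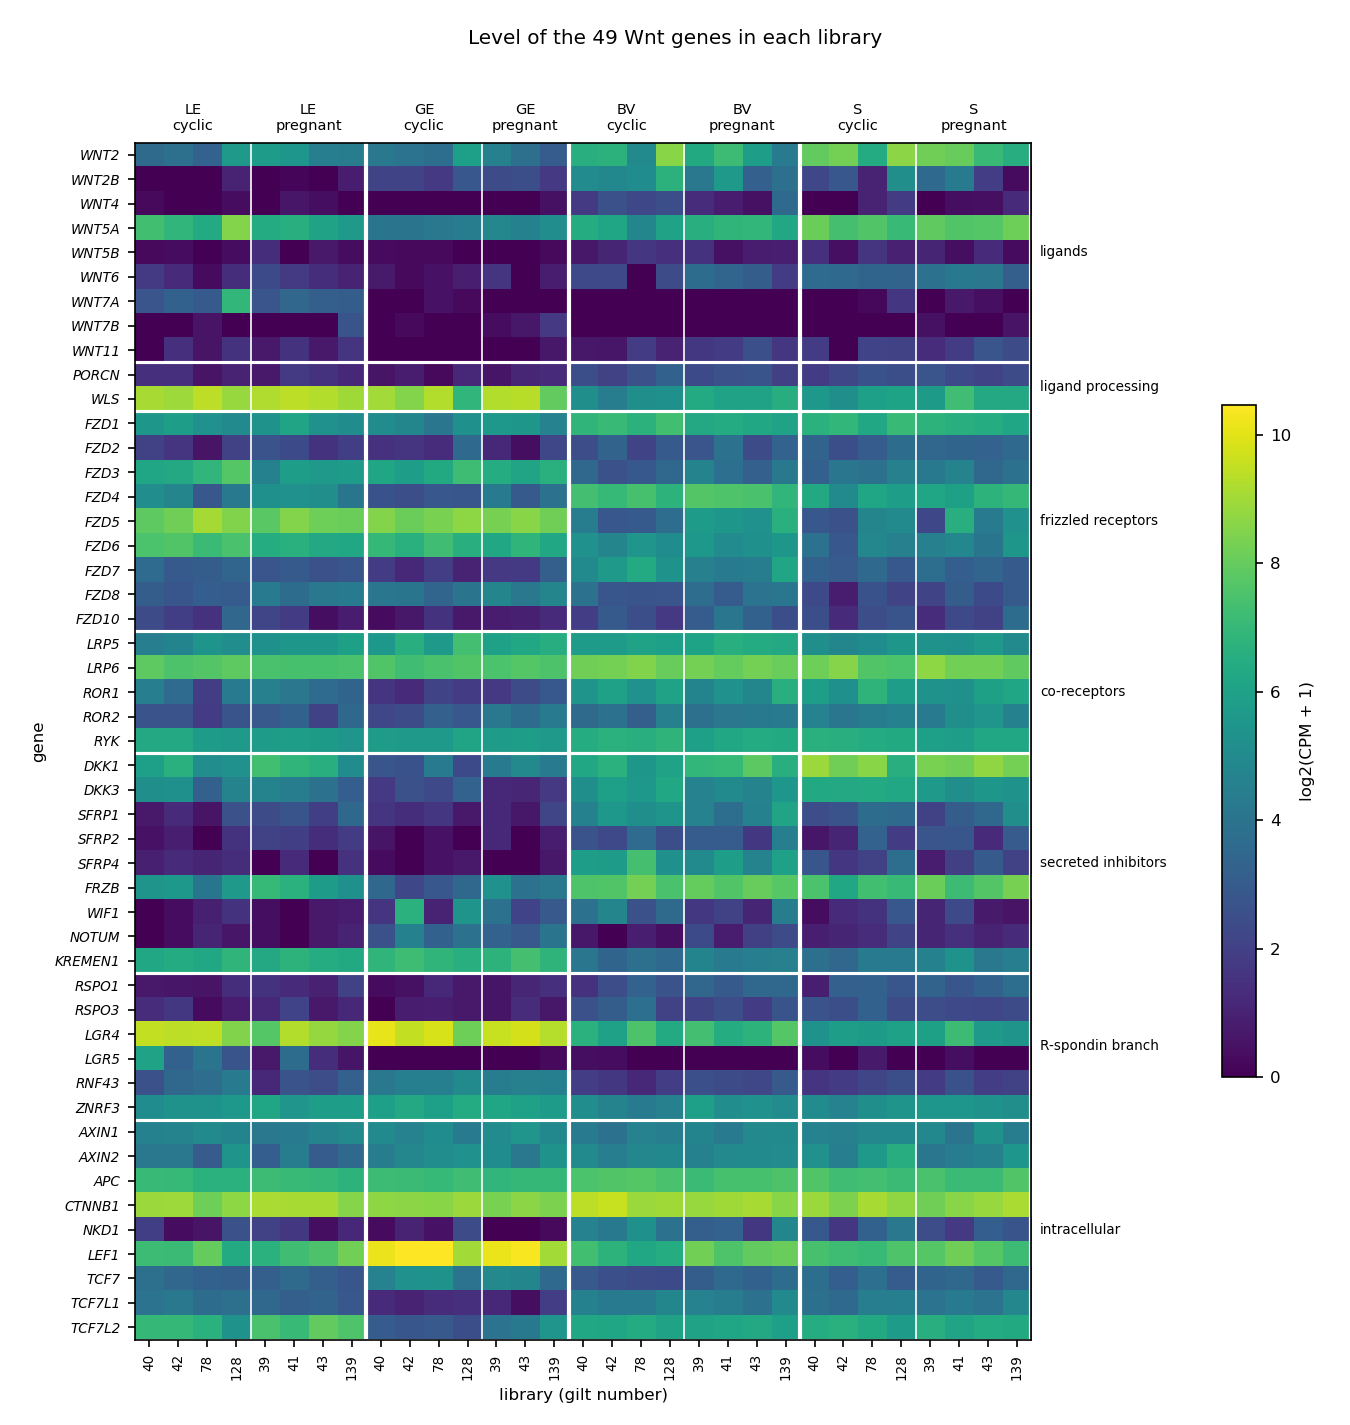
Level of each of the 49 genes (rows, grouped by role) in each of the 31 libraries (columns, named by gilt and grouped by compartment and state), as log2(CPM + 1) in colour. LEF1 is brightest in GE, WLS, FZD5 and LGR4 are bright in both epithelia, and WNT2, DKK1 and FRZB are brighter in BV and S.

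Did pregnancy change the members within a compartment? Calls were made at an FDR of 1% in LE. In GE, BV and S the limit was set on the unadjusted p instead, at the highest value still called in LE (3.28e-04 in edgeR's quasi-likelihood test). Of 33 members tested in LE 1 was called (3.32% of all genes), and of 29 in GE 0 (0.748%). BV had 2 calls among 39 members (1.86%), and S had 1 among 37 (0.293%). FZD6 fell in LE, FZD5 and WLS rose in BV, and DKK3 fell in S. An unadjusted p under 0.05 was found for 12 members in LE (26.9% of all genes), 8 in GE (23.0%), 14 in BV (28.5%) and 5 in S (14.5%).

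Other tools called more members, as they did of all genes. With the robust edgeR GLM the calls were 5 for LE (11.8% of all genes), 5 for GE (6.66%), 7 for BV (11.0%) and 1 for S (3.16%). With DESeq2 they were 3 for LE (11.2%), 3 for GE (6.64%), 4 for BV (8.50%) and 1 for S (2.60%). For 6 members in LE (18.2%, against 19.4% of all genes) and 7 in GE (24.1%, against 22.9%) the values of the 2 states did not overlap. The same held for 8 members in BV (20.5%, against 18.2%) and 2 in S (5.41%, against 8.81%). These shares were near those of all genes. With 3 or 4 gilts a group, the tests measure the spread between gilts.

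**Figure D2:**
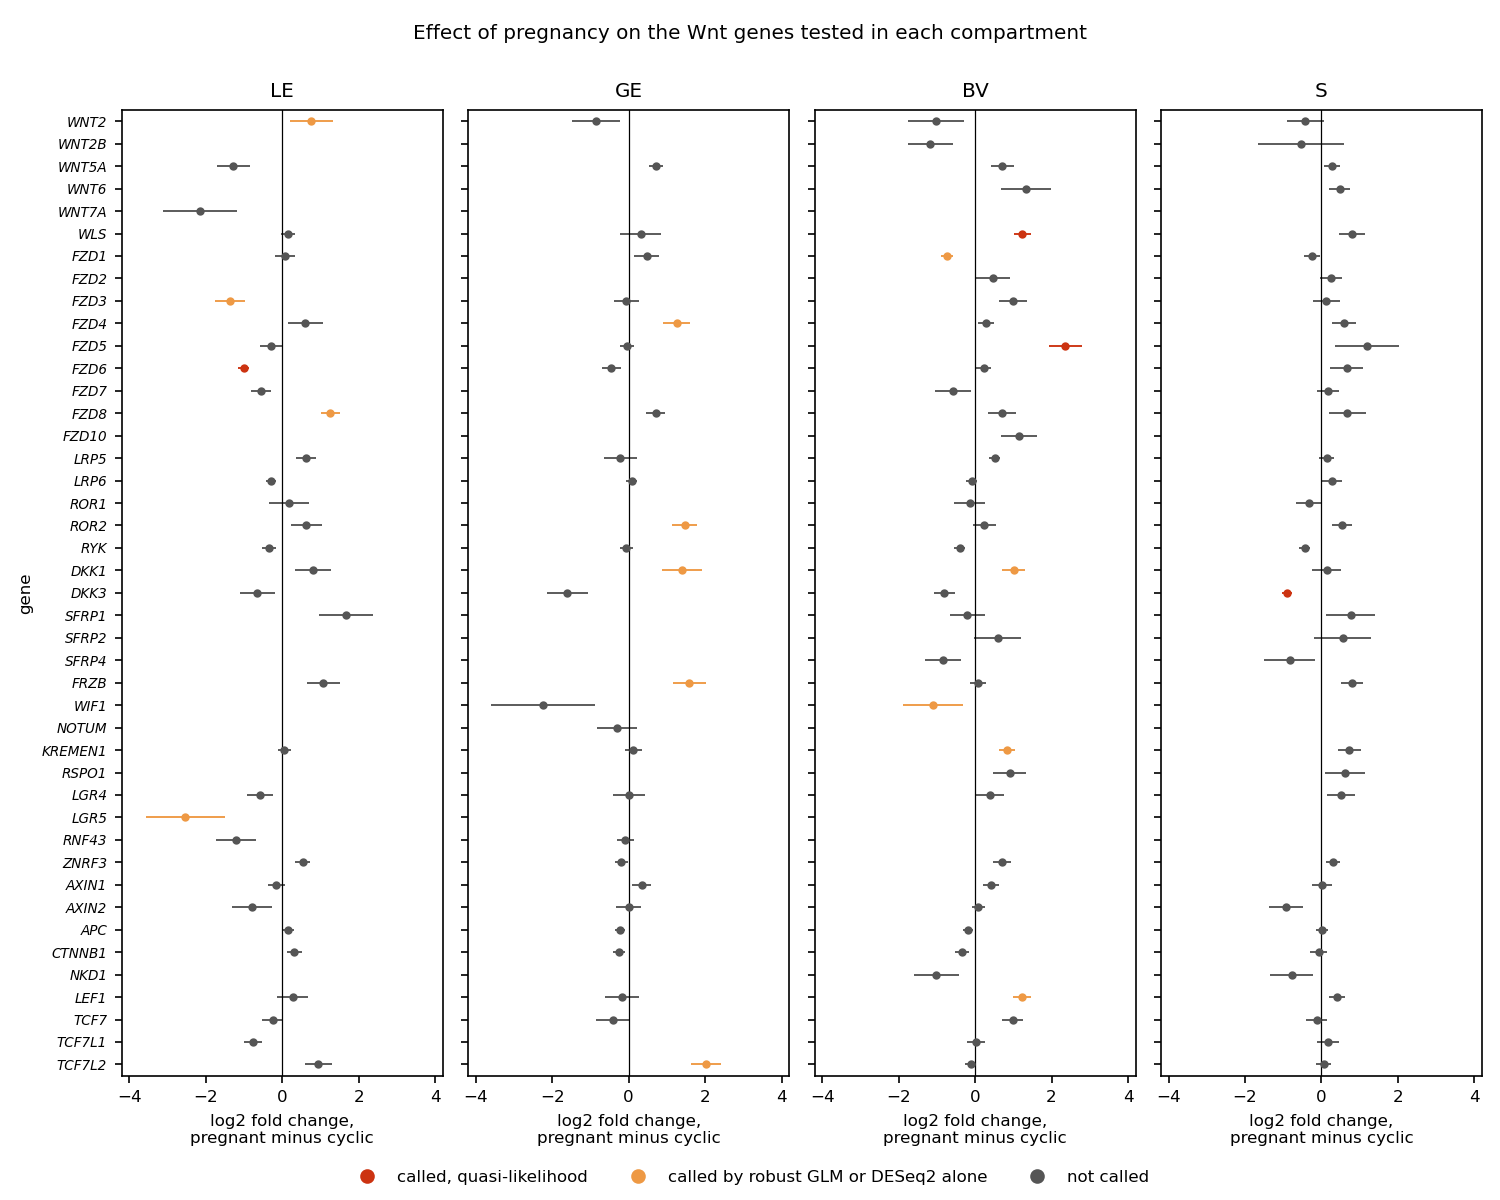
Log2 fold change, pregnant minus cyclic, with its standard error (bars) for each member tested in LE, GE, BV and S; red points were called by the quasi-likelihood test and orange points by the robust GLM or DESeq2 alone. Red points are FZD6 in LE, FZD5 and WLS in BV and DKK3 in S; orange points number 4 in LE and 5 each in GE and BV.

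Among the ligands, WNT2 and WNT5A were the only ones detectable in every compartment. WNT2, a canonical ligand (gene ID 100516839, chromosome 18, 28945825 to 28993969), was the ligand with the highest level per kilobase in S (36.1 CPM per kb), BV (18.4) and GE (3.23). In S it had 250.1, 310.2, 85.2 and 398 CPM in cyclic gilts C40, C42, C78 and C128, and 294, 258, 132 and 89.8 CPM in pregnant gilts P39, P41, P43 and P139. The BV values were 96.2, 104, 31.4 and 389 CPM in the cyclic gilts and 80.7, 145, 57.1 and 19.0 CPM in the pregnant ones, in the same gilt order. Within a compartment the states overlapped, and gilt C128 was highest among cyclic gilts in all 4 compartments. BV was below S (log2 difference -1.30 ± 0.20 SE, adjusted p = 1.55e-04), but without the gilt block the difference was -1.05 with an adjusted p of 0.171.

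The epithelial levels of WNT2 were lower. In LE the cyclic gilts had 11.4, 13.4, 8.87 and 50.0 CPM and the pregnant gilts 53.1, 44.6, 21.4 and 19.8 CPM. GE held 17.1, 14.9, 12.7 and 59.6 CPM in cyclic gilts and 22.8, 13.4 and 7.28 CPM in pregnant gilts P39, P43 and P139. All pregnant LE libraries lay above 3 cyclic ones, while cyclic gilt C128 reached their level. The robust GLM, which weighs down outlying libraries, called WNT2 higher in pregnant LE (log2 fold change 1.35, adjusted p = 0.00884), whereas the quasi-likelihood test did not (0.76 ± 0.56, adjusted p = 0.429). Without gilt C128 the quasi-likelihood fold change was 1.63 and its adjusted p 0.0314.

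WNT5A, the best known ligand of the branch without beta-catenin (gene ID 100627056, chromosome 13, 37344684 to 37367215), was the leading ligand of LE at 17.3 CPM per kb. Its LE values were 157, 118, 83.3 and 372 CPM in cyclic gilts C40, C42, C78 and C128 and 85.0, 96.0, 65.3 and 49.1 CPM in pregnant gilts P39, P41, P43 and P139. In S it ranged from 137 to 275 CPM in cyclic and from 199 to 286 CPM in pregnant gilts. GE was the compartment with the least WNT5A, at 15.1 to 20.3 CPM in cyclic and 23.6 to 33.8 CPM in pregnant gilts. LE was thus above GE (log2 difference 2.29 ± 0.27, adjusted p = 5.64e-07) and below S (-0.97 ± 0.24, adjusted p = 0.00143). Within the cyclic gilts alone the LE-S difference was -0.25 with an adjusted p of 0.550. Neither the LE decrease (-1.28 ± 0.43, adjusted p = 0.0869) nor the GE increase (0.72 ± 0.18, adjusted p = 0.0817) in pregnancy was called by any of the 3 tools.

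WNT7A, which in the mouse is made by the luminal epithelium and needed for uterine patterning, was detectable in LE alone. Cyclic gilts C40, C42 and C78 had 5.68, 8.56 and 6.83 CPM and gilt C128 had 123 CPM, while the pregnant gilts had 5.73, 9.85, 8.003 and 7.46 CPM. Apart from gilt C128, then, the 7 LE libraries lay between 5.68 and 9.85 CPM. No read of WNT7A was counted in any BV library, so cyclic LE was at least 146-fold and pregnant LE at least 26.7-fold above BV, against a floor of 3 counts over the group. Gilt C128 set the cyclic bound, which was 28.5-fold without it. WNT2B went the other way, with 8.16 to 106 CPM in BV and at most 1.07 CPM in LE. BV was above S for WNT2B (2.16 ± 0.41, adjusted p = 0.00108) and below S for WNT6 (-1.43 ± 0.35, adjusted p = 0.00804), whose S values were 7.95 to 18.0 CPM. Without the gilt block neither was called (adjusted p = 0.0479 for WNT2B and 0.0460 for WNT6), and the WNT6 call was lost on leaving out any of the 8 gilts (adjusted p up to 0.0262). The WNT6 call of BV over LE was lost without gilt C42, C128 or P41 (adjusted p up to 0.0145). WNT4, WNT5B, WNT7B and WNT11 stayed at or below 11.0 CPM in every library.

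Of the genes for ligand processing, WLS was higher in the epithelia. WLS, the carrier that brings lipid-modified Wnt proteins to the cell surface (gene ID 100516916, chromosome 6, 144242639 to 144529659), had 152 CPM per kb in LE and 120 in GE, against 14.4 in BV and 19.0 in S. In LE its values were 543, 493, 683 and 459 CPM in cyclic and 590.0, 696, 608 and 502 CPM in pregnant gilts. GE held 509.9, 367, 609.7 and 119 CPM in cyclic gilts C40, C42, C78 and C128, and 619.7, 649 and 245 CPM in pregnant gilts P39, P43 and P139. Gilts C128 and P139 were the low ones of their GE groups. The excess of LE over BV was 3.50 ± 0.28 and over S 3.06 ± 0.27 on the log2 scale (adjusted p = 1.66e-09 and 8.23e-09), and the LE minus GE difference of 0.33 ± 0.26 was not called (adjusted p = 0.302).

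In BV, WLS rose in pregnancy from 36.3, 20.2, 36.1 and 37.7 CPM in cyclic gilts C40, C42, C78 and C128 to 82.6, 64.0, 64.2 and 92.2 CPM in pregnant gilts P39, P41, P43 and P139. Every pregnant library was above every cyclic one. The log2 fold change was 1.23 ± 0.22 (adjusted p = 0.0170). The call was lost on leaving out any gilt but C42. Over all 8 gilts left out in turn the fold change was 1.05 to 1.31 and the adjusted p 0.0182 to 0.0495. The summed epithelial markers in the same BV libraries were 7.94-fold higher in pregnant gilts, and their part in the WLS rise was not tested. S values of WLS were 36.5 to 66.3 CPM in cyclic and 50.9 to 154 CPM in pregnant gilts and were not called (0.80 ± 0.33, adjusted p = 0.313). PORCN, the enzyme that attaches the lipid, was listed at 0.212 to 8.40 CPM and passed the filter nowhere.

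Among the frizzled receptors FZD3, FZD5 and FZD6 were higher in both epithelia, and FZD1, FZD2 and FZD4 in BV and S. FZD5 (gene ID 100519058, chromosome 15, 110913990 to 110921388) led both epithelia, with 51.6 CPM per kb in LE and 55.0 in GE, and FZD4 (gene ID 100520319, chromosome 9, 20714995 to 20721460), an endothelial receptor that also takes the ligand norrin, led BV and S with 36.1 and 17.3. FZD5 had 234, 289.9, 526 and 354 CPM in cyclic LE and 218, 369, 283 and 275 CPM in pregnant LE. Its GE values were 363, 276, 324 and 412 CPM in cyclic gilts and 319, 393 and 295 CPM in pregnant gilts, with full overlap of the states. LE exceeded BV by 3.56 ± 0.40 and S by 3.82 ± 0.41 on the log2 scale (adjusted p = 2.11e-07 and 9.23e-08).

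Of the 4 called changes that of FZD5 was the largest. In BV it went from 20.7, 6.25, 6.80 and 12.4 CPM in cyclic gilts C40, C42, C78 and C128 to 54.9, 45.6, 38.2 and 99.0 CPM in pregnant gilts P39, P41, P43 and P139, without overlap. The log2 fold change was 2.36 ± 0.43 (adjusted p = 0.0169). On leaving out gilts C42, C78, C128, P39, P41 or P139 the call was lost. Over all 8 gilts left out in turn the fold change was 1.999 to 2.81 and the adjusted p 0.0161 to 0.0568. Epithelial markers in the same BV libraries summed to 3.97 to 62.6 CPM in cyclic and 201 to 387 CPM in pregnant gilts. Their part in the BV rise of FZD5 was not tested. In S the cyclic values of FZD5 were 6.17, 5.10, 26.5 and 30.9 CPM and the pregnant ones 3.80, 95.3, 19.8 and 38.8 CPM, so the states overlapped widely. Epithelial markers in the same S libraries summed to 16.8, 12.0, 193 and 206 CPM in cyclic and 44.0, 597, 147 and 348 CPM in pregnant gilts. Their part in the S values of FZD5, WLS and LGR4 was not tested.

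FZD6 (gene ID 100157360, chromosome 4, 33811159 to 33844556), a receptor tied to planar cell polarity, fell in pregnant LE. Cyclic gilts C40, C42, C78 and C128 had 182, 195, 139.5 and 177 CPM and pregnant gilts P39, P41, P43 and P139 had 88.8, 98.0, 78.4 and 75.6 CPM, means of 173 ± 23.8 and 85.2 ± 10.2 CPM (SD, n = 4). The states were well apart. The log2 fold change was -1.01 ± 0.15 with an adjusted p of 0.00466, and the robust GLM and DESeq2 called it as well. It ranged from -1.08 to -0.95 when each gilt was left out in turn, and without gilt C40, C42, P39, P43 or P139 the adjusted p was above the 1% limit, at most 0.0221. In GE FZD6 had 97.2 to 151 CPM in cyclic and 74.0 to 114 CPM in pregnant gilts (-0.45 ± 0.24, adjusted p = 0.299).

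FZD3, also linked to cell polarity (gene ID 100153078, chromosome 14, 12281127 to 12394768), was lower in pregnant LE as well. It had 70.3, 78.5, 117 and 208 CPM in cyclic and 23.2, 55.6, 48.3 and 54.0 CPM in pregnant LE. The groups did not overlap, yet the cyclic gilts themselves spread widely. The quasi-likelihood test did not call the difference (-1.36 ± 0.39, adjusted p = 0.0557), while the robust GLM and DESeq2 did (-1.16 and -1.37, adjusted p = 0.00491 and 0.00791). GE showed no such step, with 55.1 to 146 CPM in cyclic and 68.7 to 97.8 CPM in pregnant gilts. FZD8 (gene ID 110255708, chromosome 10, 58093980 to 58096790) had the opposite sign in LE, from 7.43, 5.99, 7.74 and 7.23 CPM to 19.4, 11.9, 17.3 and 19.3 CPM. Its fold change of 1.26 ± 0.24 had an adjusted p of 0.0125, just past the limit, and passed in the robust GLM and DESeq2 and without pregnant gilt P41 (adjusted p = 0.00873). FZD8 in BV was at 13.8, 5.96, 5.52 and 5.72 CPM in cyclic and 12.5, 7.28, 14.8 and 16.1 CPM in pregnant gilts, and S had 0.729 to 7.53 CPM.

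**Figure D3:**
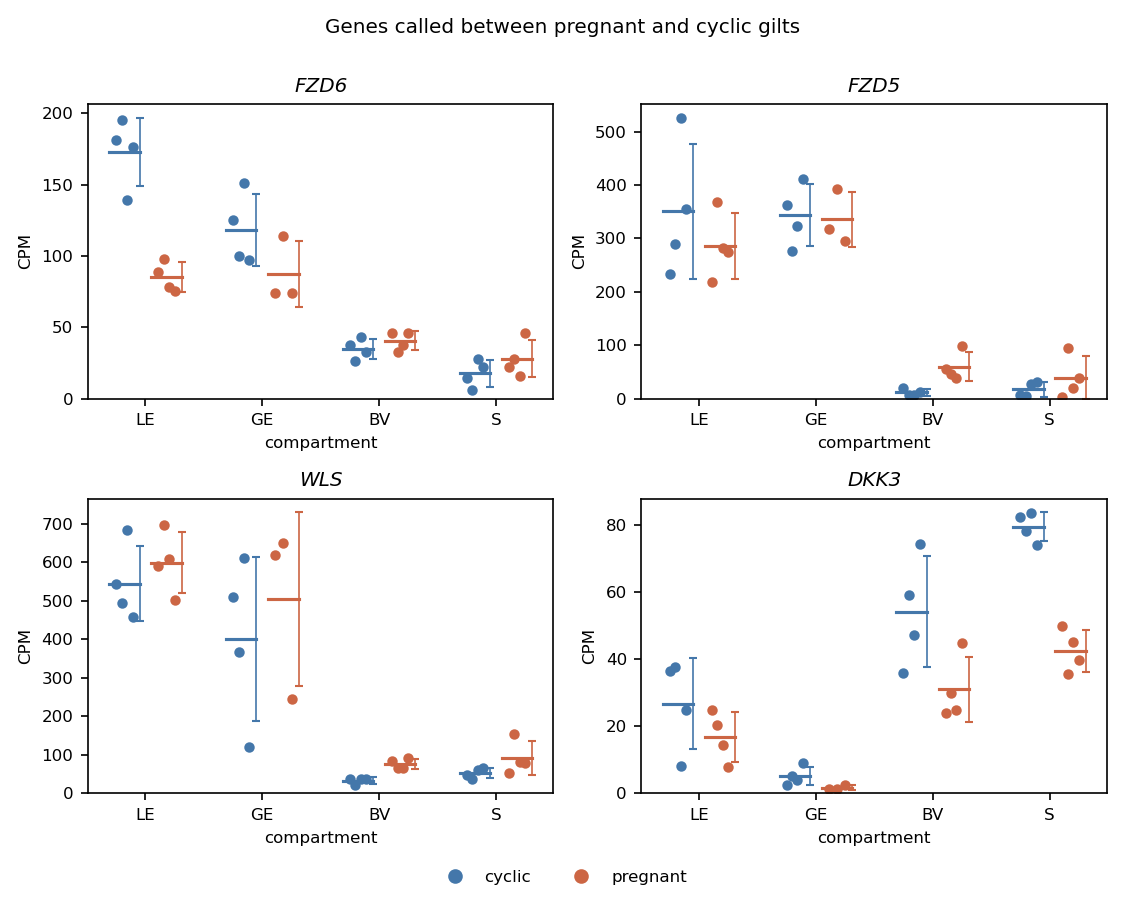
CPM of FZD6, FZD5, WLS and DKK3 in each library (points) by compartment and state, with the mean (line) and SD (bar, cut at 0). FZD6 in LE is at 139.5 to 195 CPM in cyclic and 75.6 to 98.0 CPM in pregnant gilts, FZD5 and WLS are low in BV beside the epithelia, and DKK3 in S is at 74.0 to 83.4 CPM in cyclic and 35.4 to 49.7 CPM in pregnant gilts.

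In the vessels, FZD4 had 160.3, 129, 172 and 107 CPM in cyclic and 204, 189, 177 and 117 CPM in pregnant BV. The S values were 79.9, 30.6, 70.2 and 58.2 CPM in cyclic and 69.5, 60.9, 107 and 124 CPM in pregnant gilts. BV was above S (1.07 ± 0.27, adjusted p = 0.00957), a call that was lost on leaving out gilt C40, C42, C128, P39, P41 or P43 (adjusted p up to 0.0462). GE was far below BV (-4.17 ± 0.34, adjusted p = 1.06e-09). There FZD4 had 5.30, 4.65, 6.15 and 6.05 CPM in cyclic gilts and 19.1, 6.87 and 14.0 CPM in pregnant gilts P39, P43 and P139, a difference called by the robust GLM alone (1.27, adjusted p = 0.0154 and 1.26 ± 0.35, adjusted p = 0.0936 in the quasi-likelihood test). Markers of endothelium summed to 16.6 to 47.7 CPM in cyclic and 19.7 to 185 CPM in pregnant GE, and their part in the FZD4 values was not tested.

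FZD7 (gene ID 100513691, chromosome 15, 105644164 to 105648860) was also highest in BV, at 19.5 to 82.4 CPM, and exceeded S by 2.13 ± 0.26 (adjusted p = 2.77e-05). FZD1 (gene ID 110262227, chromosome 9, 71346994 to 71356488) had 114, 134, 106 and 156 CPM in cyclic and 77.7, 85.8, 76.4 and 64.7 CPM in pregnant BV. Though the states did not overlap, the decrease was not called by the quasi-likelihood test (-0.73 ± 0.15, adjusted p = 0.0238) but by the robust GLM and DESeq2 (adjusted p = 0.00106 and 7.45e-04). The BV minus S difference of FZD1 was 0.00 ± 0.14. FZD2 and FZD10 stayed at or below 14.2 and 16.5 CPM. The FZD2 calls against BV were lost without gilt C42 or P41 in LE and without gilt C42, P39 or P43 in GE (adjusted p up to 0.0153 and 0.0161), and without the gilt block in GE (0.0104).

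Among co-receptors LRP6, which pairs with frizzled in canonical signalling (gene ID 100515777, chromosome 5, 60149041 to 60318719), had the highest level per kilobase everywhere, from 19.4 in GE to 30.9 CPM per kb in BV. LE held 234, 185, 203 and 233 CPM in cyclic and 177, 170, 170 and 176 CPM in pregnant gilts, groups that did not overlap but were not called. BV values were 289.8, 310.0, 361 and 259 CPM against 313, 256, 308 and 266 CPM. In S they were 289, 379, 196 and 182 CPM against 409, 305, 304 and 243 CPM, and in GE 195, 153, 174 and 196 CPM against 181, 206 and 186 CPM. Both epithelia lay slightly below both other compartments (log2 differences -0.68 to -0.55). Its relative LRP5 was lower in LE than in GE (-1.08 ± 0.19, adjusted p = 7.04e-05), with 21.4 to 60.7 CPM in LE and 46.6 to 163 CPM in GE.

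ROR2, a receptor for WNT5A (gene ID 100154208, chromosome 14, 2803840 to 3035384), was lower in both epithelia than in S. In GE it had 3.69, 4.24, 8.27 and 6.27 CPM in cyclic gilts C40, C42, C78 and C128 and 17.0, 11.9 and 18.1 CPM in pregnant gilts P39, P43 and P139, with no overlap. The robust GLM and DESeq2 called the increase (adjusted p = 0.00172 and 0.00279) and the quasi-likelihood test did not (1.47 ± 0.33, adjusted p = 0.0622). S was at 16.4 to 23.8 CPM in cyclic and 19.0 to 42.6 CPM in pregnant gilts. ROR1 was high in BV and S (25.4 to 111 CPM) and at most 6.30 CPM in GE. RYK, which had 42.9 to 112 CPM over all 31 libraries, was higher in BV and S than in both epithelia. Its calls against S were lost without gilt C78, P43 or P139 in LE and without gilt P139 in GE (adjusted p up to 0.0268 and 0.0155).

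Of the secreted inhibitors, DKK3, SFRP1, SFRP4 and FRZB were higher in both BV and S than in both epithelia. For DKK3 the LE minus BV difference of -0.96 ± 0.27 (adjusted p = 0.00426) was lost as a call without gilt C78, C128, P43 or P139 (-1.17 to -0.71 over all gilts left out, adjusted p up to 0.0245). DKK1, which blocks LRP5 and LRP6 (gene ID 100157640, chromosome 14, 97487854 to 97490118), led this group in S, BV and LE with 408, 134 and 97.9 CPM per kb; its model of 801 bases holds coding sequence only. S had 473, 294, 386 and 96.9 CPM in cyclic and 329, 295, 428 and 312 CPM in pregnant gilts. BV had 73.4, 101, 45.5 and 65.2 CPM in cyclic and 121, 127, 226 and 97.3 CPM in pregnant gilts, and LE had 59.0, 99.0, 34.4 and 37.7 CPM against 156, 116, 93.5 and 32.6 CPM. S was above both BV and GE (log2 differences BV minus S -1.65 ± 0.30 and GE minus S -4.55 ± 0.37, adjusted p = 8.48e-04 and 1.28e-09).

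In GE DKK1 was low, with 5.99, 5.25, 18.2 and 4.11 CPM in cyclic gilts C40, C42, C78 and C128 and 19.7, 29.6 and 18.1 CPM in pregnant gilts. Gilt C78 was as high as the lowest pregnant gilt, so the states overlapped. The robust GLM called the increases in GE and BV (adjusted p = 1.65e-04 and 0.00472), and the quasi-likelihood test called neither (1.39 ± 0.52, adjusted p = 0.163 in GE and 1.01 ± 0.30, adjusted p = 0.0650 in BV). Without cyclic gilt C78 the GE fold change was 2.12 and its unadjusted p passed the limit.

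DKK3, a divergent Dickkopf protein (gene ID 664653, chromosome 2, 47385244 to 47444664), was the only member called in S. It had 82.2, 78.01, 83.4 and 74.0 CPM in cyclic gilts C40, C42, C78 and C128 and 49.7, 35.4, 44.9 and 39.8 CPM in pregnant gilts P39, P41, P43 and P139, means of 79.4 ± 4.24 and 42.5 ± 6.23 CPM (SD, n = 4). The lowest cyclic value was well above the highest pregnant one. The fold change was -0.90 ± 0.14 on the log2 scale and its unadjusted p was inside the limit, while the adjusted p of 0.0891 did not reach 1% within S, where no gene did. Leaving out gilt C40, C42, C78, P41 or P139 moved the p past the limit, with fold changes of -0.98 to -0.83 over all 8 gilts left out in turn. The other compartments showed the same sign without a call: -0.80 ± 0.27 in BV, -0.65 ± 0.47 in LE and -1.60 ± 0.55 in GE. Smooth muscle markers in S summed to 484 to 1219 CPM in cyclic and 440 to 585 CPM in pregnant gilts (ratio 0.541, exact permutation p = 0.0857, two-sided), and their part in the DKK3 decrease was not tested.

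FRZB, a secreted frizzled-related protein that binds Wnt ligands (gene ID 100152419, chromosome 15, 88332856 to 88377275), had 176 to 313 CPM in BV and 77.3 to 323 CPM in S. GE was lowest, with 10.1, 3.84, 6.15 and 10.4 CPM in cyclic gilts and 37.7, 14.0 and 17.5 CPM in pregnant gilts P39, P43 and P139. This GE difference passed in the robust GLM and DESeq2 (1.45 and 1.61, adjusted p = 0.00830 and 0.0158) and not by the quasi-likelihood test (1.59 ± 0.44, adjusted p = 0.0942). In the same GE libraries the summed leukocyte markers were 20.6 to 30.2 CPM in cyclic and 76.3 to 120 CPM in pregnant gilts (3.82-fold, exact permutation p = 0.0286, two-sided), and the fibroblast markers 2877 to 7533 CPM against 3619 to 6561 CPM. The part of these markers and of the endothelial markers given above in the GE values of FRZB, DKK1, ROR2 and FZD4 was not tested.

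SFRP4 was highest in BV, with 57.8, 53.7, 164 and 37.7 CPM in cyclic and 30.3, 56.3, 24.5 and 61.7 CPM in pregnant BV. S held 0.759 to 12.8 CPM and no epithelial library more than 1.80 CPM. BV exceeded S by 3.69 ± 0.41 on the log2 scale (adjusted p = 1.32e-05), while the SFRP4 call of S over LE was lost without gilt P43 (adjusted p = 0.0115). SFRP1 had the same order, at 12.6 to 68.1 CPM in BV and 3.04 to 35.1 CPM in S (1.74 ± 0.31, adjusted p = 6.48e-04, and 0.0122 without the gilt block), and SFRP2 was at 2.23 to 21.1 CPM in BV and 0.561 to 8.73 CPM in S. These secreted frizzled-related proteins bind Wnt ligands outside the cell.

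In GE, NOTUM was above all other compartments and WIF1 above LE and S. WIF1, which binds Wnt ligands (gene ID 100512657, chromosome 5, 29450442 to 29543913), varied widely between gilts, with 2.07, 102, 1.06 and 42.3 CPM in cyclic gilts C40, C42, C78 and C128 and 13.9, 3.29 and 6.49 CPM in pregnant GE. LE never exceeded 1.87 CPM and S 6.19 CPM. The GE minus S difference of 2.71 ± 0.78 (adjusted p = 0.00410) was lost as a call without gilt C42, P39 or P43 (2.07 to 3.23 over all gilts left out, adjusted p up to 0.0399). In BV it had 13.8, 25.8, 5.10 and 11.4 CPM in cyclic and 2.27, 3.06, 1.11 and 20.3 CPM in pregnant gilts. The robust GLM called the BV decrease (-2.15, adjusted p = 0.00252), but with gilt P139 as high as the cyclic gilts the quasi-likelihood test gave -1.10 ± 0.79 (adjusted p = 0.396). BV of gilt P139 also had the most smooth muscle markers of the pregnant gilts, 6966 CPM against 1101 to 2547 CPM in the other 3 and 6072 to 18345 CPM in cyclic gilts, and their part in the WIF1 values was not tested. NOTUM, an enzyme that strips the lipid from Wnt proteins and itself a known target of the pathway, was detectable in GE only, at 5.07 to 23.0 CPM, and was above LE (LE minus GE -4.37 ± 0.48, adjusted p = 2.70e-07).

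KREMEN1, which removes LRP6 from the surface together with DKK1 (gene ID 100154052, chromosome 14, 46254248 to 46323355), was the leading gene of this group in GE at 24.1 CPM per kb. GE held 114, 147, 114 and 95.9 CPM in cyclic and 109, 166 and 109.6 CPM in pregnant gilts, and LE 76.0, 85.6, 74.2 and 114 CPM against 79.6, 108, 89.3 and 82.0 CPM. BV had 16.5, 9.37, 13.6 and 11.09 CPM in cyclic and 25.8, 19.5, 21.5 and 22.4 CPM in pregnant gilts. All pregnant BV values were above the cyclic ones, and the robust GLM called them (0.83, adjusted p = 0.00924), the quasi-likelihood test at 0.83 ± 0.21 and adjusted p = 0.0442 not.

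R-spondins strengthen Wnt signals by binding LGR receptors and taking the ubiquitin ligases RNF43 and ZNRF3, which remove frizzled, from the surface. LGR4 (gene ID 100518646, chromosome 2, 32871837 to 32979150) led this branch in every compartment, from 103 CPM per kb in GE and 69.5 in LE to 17.0 in BV and 8.53 in S. GE had 1094, 729, 917 and 285 CPM in cyclic and 774, 897 and 633 CPM in pregnant gilts. LE had 728, 684, 705 and 353 CPM in cyclic and 209.7, 613, 444 and 366 CPM in pregnant gilts. In both epithelia cyclic gilt C128 was the lowest of its group. BV values were 103, 61.9, 187 and 82.4 CPM against 163, 87.3, 108 and 209 CPM, and S values 39.3, 55.0, 51.0 and 63.0 CPM against 61.1, 142, 49.4 and 42.3 CPM, with no call for pregnancy in any compartment.

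LGR5, a target of the pathway and stem cell marker in other epithelia (gene ID 100151994, chromosome 5, 35463257 to 35595234), was a gene of LE. Cyclic gilts C40, C42, C78 and C128 had 65.3, 8.56, 15.2 and 5.62 CPM and pregnant gilts P39, P41, P43 and P139 had 0.636, 11.9, 1.60 and 0.514 CPM. Gilt C40 stood high among cyclic and gilt P41 among pregnant gilts. The robust GLM called the decrease (-3.18, adjusted p = 1.34e-04), and the quasi-likelihood test did not (-2.54 ± 1.03, adjusted p = 0.150). On leaving out each gilt the latter ranged from -4.65 without gilt P41 to -1.33 without gilt C40. No other library had more than 0.685 CPM, and cyclic LE was at least 147-fold above cyclic GE, where no read was counted, against a floor of 3 counts over the group. Without gilt C40 that bound was 60.9-fold.

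The ligase genes RNF43 and ZNRF3 were highest in GE. RNF43 had 17.1 to 31.5 CPM in GE, 1.27 to 18.5 CPM in LE and at most 6.77 CPM in BV and S (LE minus GE -1.69 ± 0.23, adjusted p = 3.23e-06). ZNRF3 was at 54.1 to 84.7 CPM in GE and 32.8 to 73.2 CPM in LE (-0.45 ± 0.13, adjusted p = 0.00743). The ZNRF3 call had an adjusted p of up to 0.0354 with a gilt left out and of 0.0103 without the gilt block. Of the R-spondins, RSPO1 was a gene of BV and S, at 0.841 to 12.9 CPM there and at most 3.08 CPM in the epithelia, and RSPO3 passed the filter nowhere.

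The TCF/LEF factors, which carry beta-catenin to DNA, set the epithelia apart. LEF1 (gene ID 100170126, chromosome 8, 113824511 to 113944078) was the leading intracellular gene of GE at 116 CPM per kb, against 18.7 to 20.8 elsewhere. GE held 1151, 1379, 1415 and 515 CPM in cyclic gilts C40, C42, C78 and C128, and 1152, 1331 and 514 CPM in pregnant gilts P39, P43 and P139. LE held 144, 139.2, 251 and 84.3 CPM in cyclic and 102, 152, 188 and 299.8 CPM in pregnant gilts. Gilts C128 and P139, the low ones of GE, still lay above all LE libraries. The log2 difference was -2.62 ± 0.29 for LE minus GE, 2.64 ± 0.28 for GE minus BV and 2.43 ± 0.29 for GE minus S (adjusted p = 2.23e-07, 5.86e-08 and 2.08e-07). TCF7, its close relative, followed with 10.8 to 39.6 CPM in GE and 5.91 to 13.8 CPM in LE (LE minus GE -1.50 ± 0.22, adjusted p = 8.52e-06).

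TCF7L2 and TCF7L1 had the mirror pattern. TCF7L2 (gene ID 100153922, chromosome 14, 123343695 to 123547332) had 124, 124, 103 and 39.9 CPM in cyclic and 175, 131, 249 and 192 CPM in pregnant LE. GE had 7.15, 6.06, 6.57 and 4.75 CPM in cyclic gilts and 14.7, 17.6 and 42.5 CPM in pregnant gilts P39, P43 and P139. Every pregnant value was above every cyclic one in both epithelia. LE exceeded GE by 3.46 ± 0.22 on the log2 scale (adjusted p = 1.83e-10). For TCF7L1, a factor known mainly as a repressor, LE had 6.17 to 17.4 CPM and GE 0.299 to 2.75 CPM (LE minus GE 2.97 ± 0.26, adjusted p = 1.45e-08). The TCF7L1 call of S over LE was lost without gilt C40, C78, C128, P41 or P139 (adjusted p up to 0.0320). Per kilobase, TCF7L2 and LEF1 averaged 31.9 and 18.7 CPM per kb in LE and 3.48 and 116 CPM per kb in GE.

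**Figure D4:**
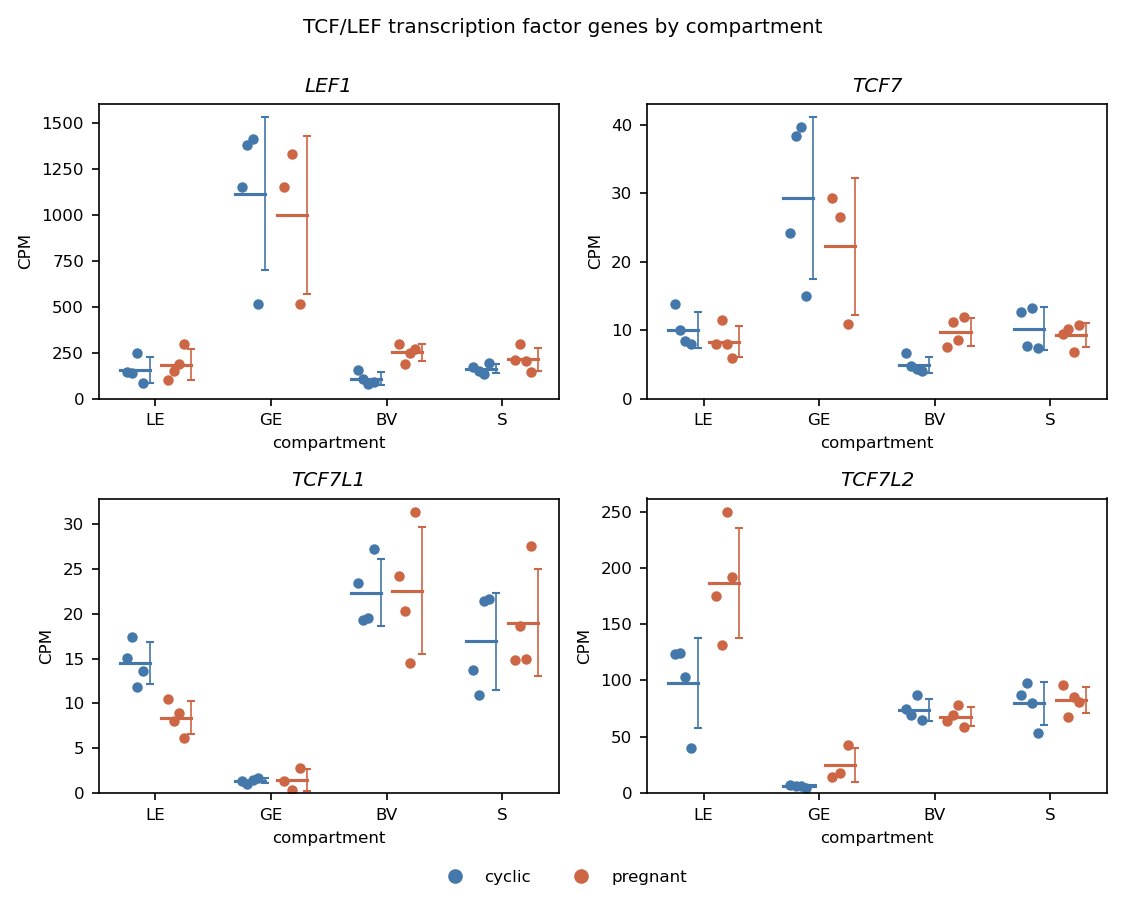
CPM of LEF1, TCF7, TCF7L1 and TCF7L2 in each library (points) by compartment and state, with the mean (line) and SD (bar, cut at 0). LEF1 and TCF7 are highest in GE, TCF7L1 and TCF7L2 lowest there, and TCF7L2 in GE is at 4.75 to 7.15 CPM in cyclic and 14.7 to 42.5 CPM in pregnant gilts.

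In GE the TCF7L2 increase of 2.02 ± 0.39 on the log2 scale had the smallest adjusted p of the members there (0.0493), short of the limit. Both the robust GLM and DESeq2 did call it (1.76 and 2.03, adjusted p = 3.29e-04 and 3.63e-04). Without pregnant gilt P139 it was 1.39. LE moved the same way (0.95 ± 0.35, adjusted p = 0.119). BV had 74.3, 69.3, 86.7 and 64.6 CPM in cyclic and 64.4, 69.7, 78.3 and 58.8 CPM in pregnant gilts, and S 87.2, 97.7, 80.1 and 53.4 CPM against 96.0, 67.8, 85.5 and 80.7 CPM, with overlap in both. TCF7L2 was the only 1 of 26 members tested whose pregnancy effect differed among the 4 compartments at an FDR of 1% (adjusted p = 0.00640; 3.05% of 9727 genes were called). The effect in GE exceeded that in BV by 2.06 ± 0.41 and that in S by 1.86 ± 0.40 (adjusted p = 0.0140 and 0.0346), and the LE minus GE difference of the effect was not called (-0.92 ± 0.40, adjusted p = 0.208). The call was lost on leaving out any gilt but P41, with adjusted p from 0.0123 without gilt P39 to 0.0343 without gilt C78. In the same GE libraries, the leukocyte markers given above also moved with pregnancy. Endothelial markers summed to 16.6 to 47.7 CPM in cyclic GE and to 19.7, 62.1 and 185 CPM in gilts P39, P43 and P139. That was a 2.65-fold difference (exact permutation p = 0.2, two-sided). The part of both marker lists in the TCF7L2 increase in GE was not tested.

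Among the other members 2 pairwise differences of the pregnancy effect passed 1%. The FZD3 effect in LE was below that in BV (difference of log2 fold changes -2.20 ± 0.45, adjusted p = 0.00395), and the LE effect on WNT2 exceeded that in BV by 1.79 ± 0.41 (adjusted p = 0.00826), where 3.37% of all genes were called for the same contrast. Both had missed 1% over the 4 compartments together (adjusted p = 0.0155 and 0.0264). The FZD3 call was lost without gilt C42, C78, C128, P39 or P139 (-2.59 to -1.68 over all gilts left out, adjusted p up to 0.0202), and the WNT2 call without any gilt but C78 or P41 (1.504 to 2.09, adjusted p up to 0.0482). FZD3 in BV had 10.2, 5.11, 6.37 and 10.4 CPM in cyclic and 24.6, 13.0, 8.16 and 17.8 CPM in pregnant gilts, 6.78% and 18.8% of its level in the higher epithelium. The summed epithelial markers in BV moved the same way (7.94-fold), and their part in the FZD3 contrast was not tested. Neither LE minus GE (1.54% of all genes), LE minus S (1.48%), GE minus BV (0.185%), GE minus S (0.0720%) nor BV minus S (0%) had a member past 1%. Over the 4 compartments 9 of 26 members had an unadjusted p under 0.05, where 25.4% of all genes did.

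The remaining intracellular genes had no call for pregnancy. CTNNB1 (gene ID 397657, chromosome 13, 25163550 to 25208314) led this group in LE, BV and S at 100, 119 and 95.1 CPM per kb. LE had 472, 486, 283 and 407 CPM in cyclic and 569, 539.7, 548 and 374 CPM in pregnant gilts. BV values were 684, 763, 478 and 505 CPM against 460.0, 507, 549 and 394 CPM, and S values 479, 342, 546 and 421 CPM against 289, 389, 459 and 556 CPM. GE was at 324 to 468 CPM, and no state or compartment was called. APC, a scaffold of the destruction complex, ran from 102 to 209 CPM and AXIN1 from 14.2 to 42.7 CPM over all 31 libraries. AXIN2, the usual readout of canonical signalling, was lower in LE than in GE (-1.07 ± 0.28, adjusted p = 0.00270), BV (-0.96 ± 0.27, adjusted p = 0.00367) and S (-1.22 ± 0.26, adjusted p = 4.39e-04), with 7.05 to 41.5 CPM in LE and 17.0 to 40.7 CPM in GE. The AXIN2 call against GE was lost without gilt P39 or P139 and that against BV without gilt C40, P39, P43 or P139 (adjusted p up to 0.0274 and 0.0178), and both without the gilt block (0.0136 and 0.0215). NKD1, another feedback target, was at 2.23 to 37.4 CPM in BV and at most 5.08 CPM in the epithelia, and its call of S over LE was lost without gilt C42, C78, P39, P43 or P139 (adjusted p up to 0.0328). AXIN2 and NKD1, whose promoter windows both hold the core, were both lower in LE than in BV and S. They differed in GE, which was below BV and S for NKD1 only. A link between the core and these levels was not tested.

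Epithelial markers differed between the states in BV. They summed to 62.6, 3.97, 33.1 and 33.6 CPM in cyclic BV libraries of gilts C40, C42, C78 and C128 and to 259, 201, 212 and 387 CPM in pregnant gilts P39, P41, P43 and P139. This was a 7.94-fold difference with no overlap (exact permutation p = 0.0286, two-sided, the smallest that 4 against 4 allows). All 9 epithelial markers tested in BV had a positive fold change, and 2 were called. Relative to LE the sum was 0.936% in cyclic and 8.39% in pregnant BV.

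FZD5 in BV stood at 3.29% of its level in the higher epithelium in cyclic and 17.7% in pregnant gilts, WLS at 5.98% and 12.6%, and KREMEN1 at 10.7% and 17.4%. LEF1 in BV had 158, 108, 76.9 and 87.7 CPM in cyclic and 299, 189.6, 247 and 269 CPM in pregnant gilts, 9.66% and 25.1% of GE. Its fold change of 1.23 ± 0.23 passed in the robust GLM and DESeq2 (adjusted p = 3.93e-07 and 5.37e-05) and just missed the quasi-likelihood limit (adjusted p = 0.0181). The higher epithelium was LE for WLS and the marker sum and GE for LEF1 and KREMEN1. For FZD5 it was LE in cyclic and GE in pregnant gilts. The shares of these genes are therefore not compared with that of the marker sum. Smooth muscle markers summed to 6072 to 18345 CPM in cyclic and 1101 to 6966 CPM in pregnant BV (ratio 0.305, exact permutation p = 0.0857, two-sided). The part of these cell mixtures in the BV values of FZD5, WLS, LEF1, KREMEN1, DKK1 and FZD1 was not tested.

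**Figure D5:**
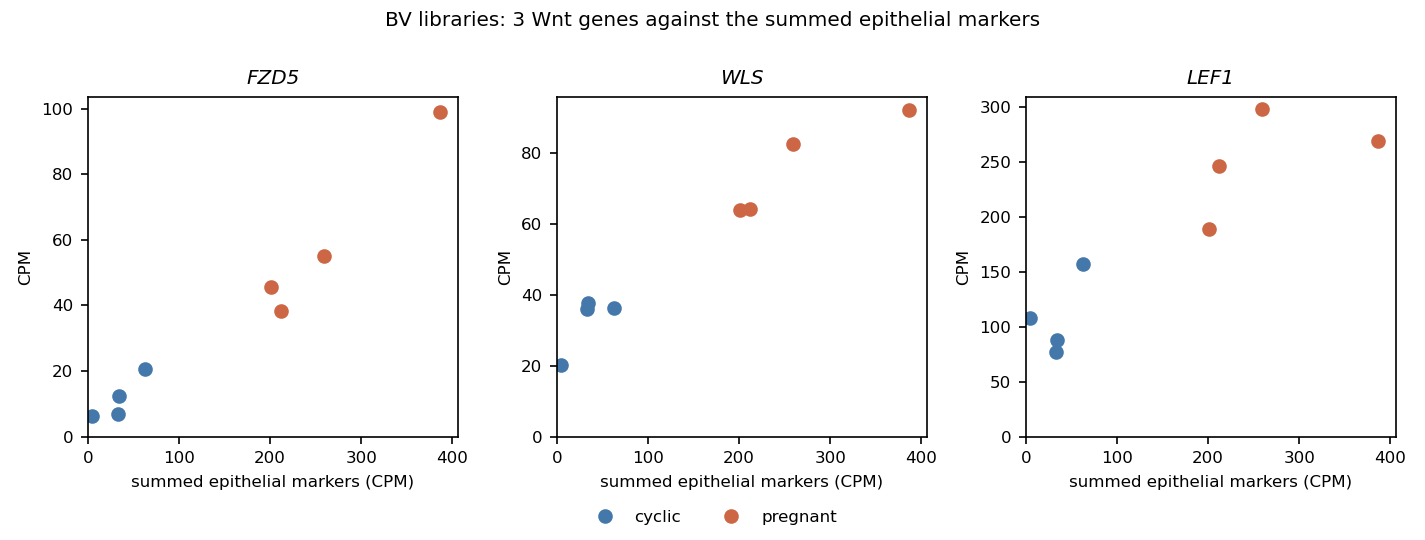
CPM of FZD5, WLS and LEF1 in each BV library (vertical axes) against the summed CPM of 12 epithelial markers in the same library (horizontal axis); points are gilts, coloured by state. The cyclic libraries sit at 3.97 to 62.6 CPM of markers and the pregnant ones at 201 to 387 CPM, and all 3 genes are higher in the latter.

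Other genes of the pathway were taken from a list of 73, of which 69 matched a symbol. By the quasi-likelihood test 2 of 42 fell in LE (3.32% of all genes were called), 0 of 43 were called in GE (0.748%), 1 of 44 rose in BV (1.86%) and 1 of 45 fell in S (0.293%). In GE 11 of the 43 had an unadjusted p under 0.05 (23.0% of all genes), and the robust GLM and DESeq2 called 3 and 4 (6.66% and 6.64%). AMER1, a membrane anchor of APC, went from 102 to 33.3 CPM in LE (-1.60 ± 0.19, adjusted p = 0.00205). TNIK, a kinase that acts on TCF7L2, went from 87.8 to 14.4 CPM there (-2.59 ± 0.29, adjusted p = 0.00162). CTBP2, a co-repressor, rose in BV (0.71 ± 0.13, adjusted p = 0.0164), and GPC4, a glypican that binds Wnt proteins, fell in S from 63.3 to 17.7 CPM (-1.83 ± 0.30, adjusted p = 0.0891).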

How the data were processed

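RNA of LE, GE, BV and S was isolated from laser capture cuts of 8 gilts and sequenced after low-input library preparation (Ovation SoLo). The authors trimmed reads with Trim Galore, mapped them with Hisat2 to Sscrofa 11.1, removed PCR duplicates with NuDup, counted reads per gene with QuasR and deposited raw counts per gene, together with a table for each compartment holding the genes that passed their CPM filter. How strand was handled in counting is not given in the sources used here. Complete endometrium tissue and the GE library of pregnant gilt P41 were not analysed here. No column of values was left without a sample.

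Starting from the counts, libraries were scaled by TMM. Pregnant and cyclic gilts were compared within each compartment by edgeR's quasi-likelihood F test (edgeR 4.0.16, limma 3.58.1, R 4.3.3) over the filtered genes, with Benjamini-Hochberg adjustment. The limit for calls was an FDR of 1% in LE, whose largest called p (3.28e-04) served as the limit on unadjusted p in GE, BV and S. The robust GLM of edgeR with a likelihood ratio test and DESeq2 1.42.0 were run on the same counts, with their own largest p in LE (0.00113904 and 0.00111946). Compartment pairs (13887 genes) and the difference of the pregnancy effect among compartments (9727 genes) came from 1 quasi-likelihood fit of all 31 libraries with the gilt as a block. The pairing comes from the design, since the compartments of a gilt are from the same animal; deviations from the group means correlated between compartments of a gilt with a median r of 0.0947 to 0.248. Marker sums were compared by exact permutation tests. The quasi-likelihood test was run on simulated data for pregnancy in LE and GE and for LE against S. So was the LE minus S difference of the pregnancy effect. The other steps were not tested this way.

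Values of each library were given, in the compartment concerned, for members called by any of the 3 tools and for the member of each role with the highest CPM per kilobase, and in all compartments for the member with a different pregnancy effect among them. Other members are given by ranges and counts. The members and lists were chosen with earlier results of these data known. Alternatives covered the test, normalization, filter, call rule, block, state and each gilt left out in turn. Leaving out gilts for 2 differences of the pregnancy effect and 2 lower bounds was added after seeing the data. Levels of lowly expressed members rest on few reads at 2415216 to 7081556 counts per library, and lower bounds use a floor of 3 counts over a group and cover counting error only.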

Additional observations from a re-analysis of the deposited data

Results flagged for a closer look

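In 12 of 138 groups of 4 libraries (8.70%) a single gilt stood apart from the other 3 by Dixon's test on CPM. Its limit is set for about 1 in 20 groups of independent, normally distributed values. CPM need not be normal and the groups share libraries, so these rates are not compared. Only members called by any of the 3 tools, leading a role or with a different pregnancy effect were tested, where detectable. Other members, such as WNT7A, were not tested for this. In cyclic LE, gilt C128 was high for WNT2 (50.0 CPM, the others 8.87 to 13.4) and low for LGR4 (353 CPM, the others 684 to 728), gilt C40 was high for LGR5 (65.3 CPM, the others 5.62 to 15.2), and gilt C78 was low for ROR2 (2.50 CPM, the others 5.42 to 5.62). In pregnant LE, gilt P139 was low for CTNNB1 (374 CPM, the others 539.7 to 569) and gilt P41 was high for LGR5 (11.9 CPM, the others 0.514 to 1.60).

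In cyclic GE, gilt C128 was high for WNT2 (59.6 CPM, the others 12.7 to 17.1) and gilt C78 for DKK1 (18.2 CPM, the others 4.11 to 5.99). In cyclic BV, gilt C78 was high for FRZB (313 CPM, the others 176 to 197), gilt C40 was high for FZD8 (13.8 CPM, the others 5.52 to 5.96) and gilt C42 was low for WLS (20.2 CPM, the others 36.1 to 37.7). In pregnant BV, gilt P139 was high for WIF1 (20.3 CPM, the others 1.11 to 3.06).

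The pregnancy effect on TCF7L2 differed among the compartments in the interaction test of edgeR (adjusted p = 0.00640), with the values given above. This was 1 of 26 members, beside 3.05% of all genes, and the call was lost on leaving out any gilt but P41.

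Among members that passed the filter in no compartment, WNT5B had 1.59 CPM in pregnant LE of gilt P39, and WNT7B had 5.66 CPM in pregnant LE and 2.36 CPM in pregnant GE of gilt P139. Each was over 4 times the highest cyclic library of the compartment, in 1 pregnant gilt.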

How the results depend on the processing

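Over 199 results and 2764 values recomputed under alternatives, 1 sign changed (RNF43, LE minus BV, -0.0699 in pregnant gilts only), and RLE normalization changed no call. Members called for pregnancy in LE, 1 in the main test, numbered 5 by the robust GLM, 3 by DESeq2, 0 in 1 fit of all libraries and 2 at an FDR of 5%, while calls over all genes went from 398 to 1411, 1342, 1110 and 1288. The count of 0 in GE became 5, 3, 2 and 1 under the same settings (all genes 89 to 793, 791, 599 and 221). In BV 2 became 7 by the robust GLM, 4 by DESeq2, 1 in 1 fit, 0 at an FDR of 1% within BV and 5 at 5% (all genes 206 to 1216, 943, 540, 0 and 958). The 1 call in S became 0 in 1 fit and at an FDR of 1% or 5% within S (all genes 35 to 168, 0 and 4). With each gilt left out the counts were 0 to 2 in LE, 0 to 1 in GE, 0 to 2 in BV and 0 to 1 in S. Over genes detectable in all compartments, where fewer members could be tested, the counts were 13 for LE and GE, 19 for LE and BV, 20 for LE and S, 21 for GE and BV, 22 for GE and S and 6 for BV and S. Pregnant gilts alone gave 12 for LE and GE and 1 for BV and S, and cyclic gilts alone 6 for BV and S, with fewer samples. With each gilt left out the counts were 18 to 22 for LE and GE, 32 to 33 for LE and BV, 29 to 31 for LE and S, 33 to 36 for GE and BV, 34 to 37 for GE and S and 7 to 10 for BV and S. Without the replicate block BV and S gave 7 calls in place of 11 (all genes 825 in place of 998). Of 168 called pair differences of members 8 were lost without it, those of WNT2, WNT2B, WNT6 and SFRP1 between BV and S, of ZNRF3 between LE and GE, of AXIN2 between LE and both GE and BV, and of FZD2 between GE and BV. For the difference of the pregnancy effect among compartments the count of 1 became 6 at an FDR of 5% and 6 by DESeq2 (all genes 297 to 923 and 843), and 0 to 1 with each gilt left out (all genes 81 to 255). The causes of these shifts between tools and call rules were not tested.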
